A study of Mus musculus with 16 samples.

Results

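Iron handling genes, 10 in number, were followed across liver and hepatic inflammatory cells of cirrhotic mice: the ferroportin gene Slc40a1, the hepcidin gene Hamp, Trf, Tfr2, Tfrc, Slc11a1, Fth1, Ftl1, Hmox1 and Cp. They were taken as a fixed list of names, 10 of the 33269 gene names on the array, and each was read from its brightest probe, which here was its only probe. The samples were 16 one-colour Agilent arrays, 1 per RNA sample, in 4 groups of 4. Inflammatory cells ADSC and liver ADSC came from mice given adipose tissue-derived stem cells (ADSC), and inflammatory cells PBS and liver PBS from mice treated with phosphate-buffered saline (PBS). All mice were C57Bl/6 females with cirrhosis after 40 weeks of atherogenic high-fat diet, so the PBS mice were cirrhotic too and no healthy liver served as a baseline. The stem cells were expanded from the inguinal fat of GFP-transgenic mice and injected under the splenic capsule, 100000 cells each time, in 2 injections 2 weeks apart. Samples were taken 2 weeks after the last injection. ADSC arrays carry the numbers 7 to 10 and PBS arrays 11 to 14 in both sample types. Whether arrays of one number share a mouse, and whether every array had a mouse of its own, is not stated, so p-values measure the spread between arrays. The extraction protocol names tumour-infiltrating inflammatory cells and blood, so it does not settle how the hepatic cells were isolated.

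Iron travels in plasma on transferrin, enters most cells through transferrin receptor 1 and is kept inside them in ferritin, a shell of heavy and light chains. Liver is at the centre of this system: hepatocytes make transferrin, ceruloplasmin and the hormone hepcidin, whereas macrophages, the resident Kupffer cells among them, free iron from the haem of old red cells with haem oxygenase 1 and release it through ferroportin. Hepcidin binds ferroportin and has it degraded, and its gene is switched on in hepatocytes by bone morphogenetic protein (BMP) signals, which report iron stores, and by interleukin-6, which reports inflammation.

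Each level below is the log2 processed signal of a gene minus the 75th percentile of its array, whose lowest value was 117.1 signal units, on inflammatory cells ADSC 8, and whose highest was 522.5. A level of 0 is therefore the 75th percentile of the array, and levels of different genes are not set against each other, since each probe has its own brightness. All 10 genes were well above background on all 16 arrays, and 0 spots were saturated. Per array, 51.6% to 66.3% of spots were well above background. The sample types were checked against marker lists: the mean level of 8 hepatocyte markers was 1.16 ± 0.71 in inflammatory cells ADSC, 0.38 ± 0.60 in inflammatory cells PBS, 6.59 ± 0.21 in liver ADSC and 6.50 ± 0.39 in liver PBS (SD, n = 4 each). Hnf4a, a defining transcription factor of hepatocytes, was well above background on 0 of the 8 inflammatory cell arrays and was at least 56.3-fold lower there than in liver. All 10 neutrophil, 7 T cell, 7 B cell, 6 erythroid and 10 exocrine pancreas markers tested were higher in inflammatory cells than in liver. The macrophage lists were mixed: 4 of 8 monocyte and macrophage markers were higher and 1 lower, and 5 of 10 Kupffer cell markers were higher and 2 lower. Of all genes, 49% were higher and 35.2% lower. Of the inflammatory cell arrays 3, ADSC 10, PBS 11 and PBS 13, stood apart by exocrine pancreas transcripts, with marker means of 8.51, 6.31 and 8.50. The means were 1.61 and 2.36 on PBS 12 and PBS 14, and -1.56, 0.24 and 1.02 on ADSC 7 to 9. Liver arrays were at -5.02 to -4.08, so these transcripts were not confined to 3 arrays.

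Slc40a1 was the only one of the 10 genes that passed the test between ADSC and PBS, and it did so in inflammatory cells. It was lower there in ADSC arrays by 1.59 ± 0.29 on the log2 scale (SE), a 3.01-fold difference (limma, adjusted p = 0.0275). No gene passed in liver. Between the sample types, Hamp, Trf, Tfr2, Cp, Slc40a1 and Ftl1 were lower in inflammatory cells than in liver, Hmox1 and Slc11a1 were higher, and Tfrc and Fth1 did not pass. A gene passed where limma's p-value was under 0.05 after Benjamini-Hochberg adjustment across every gene of the comparison.

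**Figure D1:**
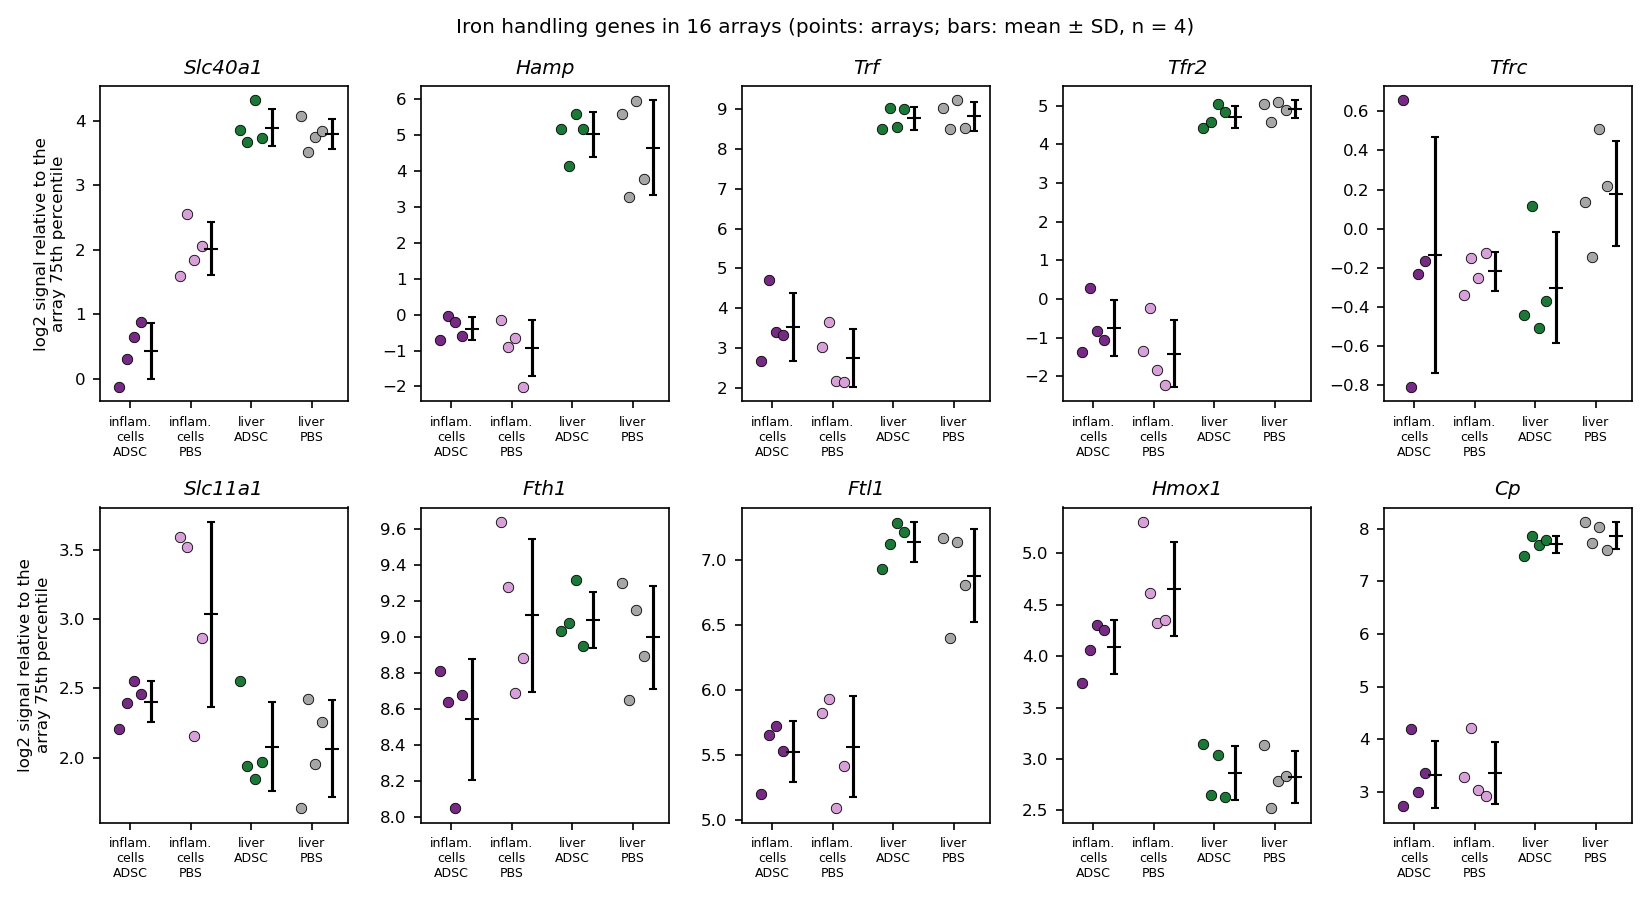
Level of each of the 10 genes on every array, as log2 signal relative to the 75th percentile of the array (vertical axis, scaled per gene). Points are arrays, in the order inflammatory cells ADSC, inflammatory cells PBS, liver ADSC and liver PBS, and bars are the mean ± SD of 4 arrays. The 4 Slc40a1 points of inflammatory cells ADSC lie between -0.13 and 0.88, all below the inflammatory cells PBS points.

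Hepcidin, the hormone end of the axis, is encoded in the mouse by Hamp, and Hamp2 is a neighbouring near-copy whose product is not known to act on ferroportin. Their promoters are shown because both genes varied widely between liver arrays. The 250 bases before the transcription start are given from RefSeq on GRCm38.p6, both on the minus strand of chromosome 7, with matches to the motifs searched in capitals. The Hamp window is chr7:30944030-30944279 and the Hamp2 window chr7:30924182-30924431.
Hamp: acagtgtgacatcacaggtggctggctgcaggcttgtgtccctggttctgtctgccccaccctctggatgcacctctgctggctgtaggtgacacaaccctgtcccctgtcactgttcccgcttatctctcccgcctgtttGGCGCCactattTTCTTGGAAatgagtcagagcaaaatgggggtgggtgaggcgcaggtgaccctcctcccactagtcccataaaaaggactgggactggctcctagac
Hamp2: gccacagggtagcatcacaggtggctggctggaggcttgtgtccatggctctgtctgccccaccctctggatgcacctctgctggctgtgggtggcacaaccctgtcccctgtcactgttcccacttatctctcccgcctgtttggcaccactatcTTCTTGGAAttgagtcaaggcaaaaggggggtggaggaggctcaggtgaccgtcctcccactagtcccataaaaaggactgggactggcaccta

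The windows were searched on both strands for GGCGCC, the core of the BMP-responsive element, and for TTCNNNGAA, the STAT site through which interleukin-6 signals act. The Hamp window held GGCGCC at bases -109 to -104 before the start and TTCTTGGAA at -97 to -89, and the matches do not overlap. In the Hamp2 window TTCTTGGAA stood at -94 to -86, and the 6 letters aligned to GGCGCC of Hamp differed by the substitution G4A, counted from the first base of the hexamer. Aligned, the windows were 91.9% identical over 247 columns. Of 32851 such windows in the RefSeq promoter table, 9.59% held GGCGCC and 7.02% held TTCNNNGAA, so a match by itself is common. The table held windows for 7 of the 10 genes, without Slc40a1, Hmox1 and Trf.

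Hamp was measured at -0.72, -0.05, -0.21 and -0.60 in inflammatory cells ADSC 7 to 10, against -0.16, -0.91, -0.65 and -2.01 in inflammatory cells PBS 11 to 14. In liver it was at 5.17, 4.15, 5.59 and 5.18 in ADSC 7 to 10, against 5.60, 3.27, 5.95 and 3.79 in PBS 11 to 14. All 8 inflammatory cell arrays lay below all 8 liver arrays, whereas ADSC and PBS overlapped in each sample type, and the lowest liver arrays were PBS 12 and PBS 14. The difference between sample types was -5.50 ± 0.38 (SE), or 45.2-fold lower in inflammatory cells (limma, adjusted p = 1.27e-09), beside a list median of -5.74 for 8 hepatocyte markers with Hnf4a at its bound. How far residual hepatocyte RNA makes up the Hamp signal of inflammatory cells was not tested. In liver, ADSC minus PBS was 0.37 with a 95% confidence interval of -1.05 to 1.79 (adjusted p = 0.998).

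Hamp was among the most variable genes between livers of one group. Its pooled within-group SD was 1.03 in liver, at percentile 98.0 of 17321 genes tested there, where the median gene had an SD of 0.25. Hamp2 followed a like course in liver, at 2.66, 2.34, 4.13 and 4.66 in ADSC 7 to 10, against 3.88, -1.06, 3.98 and 1.46 in PBS 11 to 14. Again PBS 12 and PBS 14 were the lowest arrays. The Hamp and Hamp2 probes may each take up transcripts of the other gene, so these are not independent measurements. Liver PBS 12 and PBS 14 shared a slide, and they were also the liver arrays with the highest mean of 10 neutrophil markers, at 4.03 and 2.53, against 1.47 in PBS 11, 0.27 in PBS 13 and -2.07 to -0.47 in liver ADSC. PBS 12 and PBS 14 also had the highest 75th percentiles of the liver arrays, 522.5 and 422.2, against 294.9 to 394.2 on the others. The hepatocyte marker mean was lowest in liver on PBS 12, at 5.94. What part slide, array scaling, hepatocyte or neutrophil RNA had in the low Hamp values was not tested. Without liver PBS 12, the ADSC minus PBS value of Hamp was -0.09. On the only slide with both treatments in liver, 1 array each, it was -0.78.

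**Figure D2:**
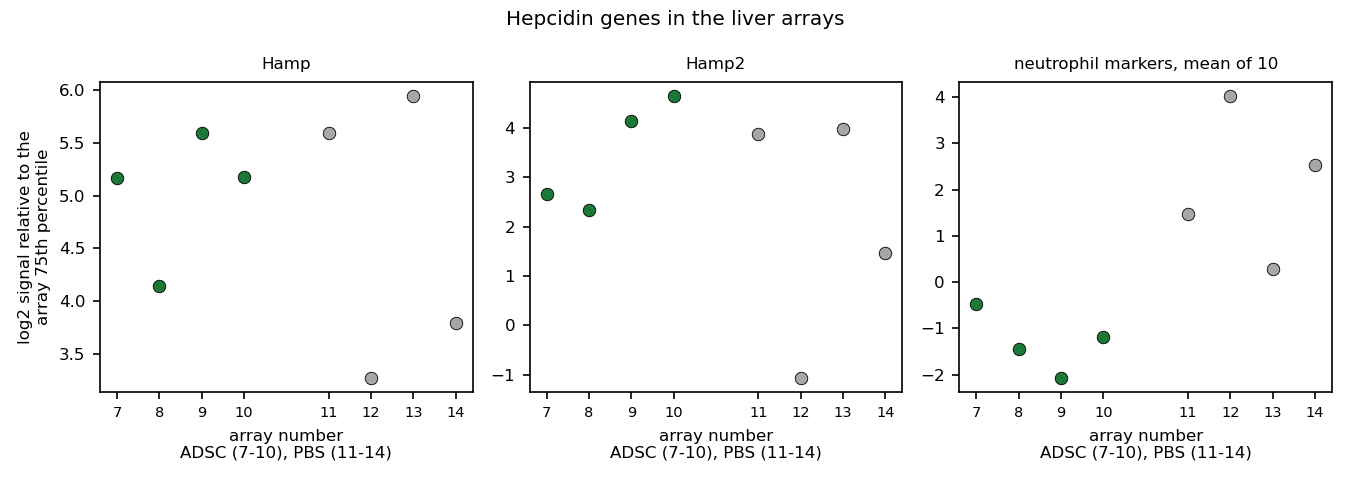
Hamp, Hamp2 and the mean of 10 neutrophil markers on the 8 liver arrays, as log2 signal relative to the 75th percentile of the array (vertical axes), by array number (horizontal axes, ADSC 7 to 10 left, PBS 11 to 14 right). Both hepcidin genes were lowest on PBS 12 and PBS 14, where the neutrophil mean was highest at 4.03 and 2.53.

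Ferroportin, the product of Slc40a1, is the only known iron exporter of animal cells and the target of hepcidin. Slc40a1 was at -0.13, 0.30, 0.64 and 0.88 in inflammatory cells ADSC 7 to 10, against 1.60, 2.56, 1.83 and 2.06 in inflammatory cells PBS 11 to 14. The groups did not overlap: the highest ADSC array lay below the lowest PBS array. In liver the levels were 3.85, 3.67, 4.31 and 3.73 in ADSC 7 to 10, against 4.07, 3.52, 3.75 and 3.84 in PBS 11 to 14, and these groups overlapped. The order of the 4 groups was thus liver ADSC and liver PBS, which did not differ beyond their spread, then inflammatory cells PBS, then inflammatory cells ADSC, each step without overlap. In a bulk fraction, fewer cells of a type and less RNA per cell cannot be told apart, and this holds for every level given here.

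In inflammatory cells the Slc40a1 difference of -1.59 had a 95% confidence interval of -2.22 to -0.95. This was 1 of the 10 genes, where 1.22% of 20167 genes tested passed in either direction and 1.09% passed as lower. Non-overlap alone was more common: Slc40a1 and Hmox1, 2 of the 10, had all ADSC arrays below all PBS arrays, as did 6.67% of genes. In the other direction 0 of the 10 did, against 3.69% of genes, and 10.4% of genes did not overlap in either direction. Where a slide held both treatments, the Slc40a1 difference was -1.29 on slide 2 and -2.69 on slide 3 (1 array against 1). By scan day it was -1.99 on day 2 and -1.07 on day 3 (2 against 2, and 2 against 1). Scan day 2 held the same arrays as slides 2 and 3. As the groups did not overlap, the direction of these values was fixed, and only their sizes are informative. Under the 23 alternatives to the processing the difference ran from -2.04 to -1.39, and 14 of them passed. Leaving out arrays could not change its direction, since the groups did not overlap. The deposited value table holds the same intensities, and Slc40a1 has 1 probe. With that table, and with the mean of a gene's probes, the value was therefore again -1.59, so these passes largely repeat the main fit. The call was lost with a 75th percentile taken over detected probes (-1.47, adjusted p = 0.0509), without the filter on dim probes (0.0691), with slide (0.0851) or scan day (0.0911) as a fixed block, and without the 3 pancreas-rich arrays together (-2.04, adjusted p = 0.136). It was also lost without PBS 12 (-1.41, 0.0933), PBS 14 (-1.57, 0.0557), ADSC 8 (-1.55, 0.0719) or ADSC 9 (-1.66, 0.0778), each left out alone, all by limma. With slide as a fixed block, and without the 3 pancreas-rich arrays, 0 genes in all passed. Over all alternatives the adjusted p of Slc40a1 ran from 0.00338 to 0.136.

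In liver the ADSC minus PBS value of Slc40a1 was 0.10 (95% confidence interval -0.31 to 0.50), and the difference between the effects in inflammatory cells and liver was -1.68 ± 0.35 (SE). That difference did not pass (adjusted p = 0.0928, with a range of 0.0166 to 0.275 over alternatives). It passed with array weights and when only probes above background on every array were kept. None of the 10 genes passed this test, where 0.0316% of 22145 genes did. At an unadjusted p under 0.05 there were 1 of the 10 genes, Slc40a1, and 10.1% of all genes. The size of the gap between sample types was -3.47 for Slc40a1 within ADSC arrays and -1.78 within PBS arrays, and both passed.

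Macrophage and neutrophil transcripts moved along with Slc40a1 in inflammatory cells. Kupffer cells are rich in ferroportin, and the mean of 10 Kupffer cell markers was 0.68 ± 0.66 (range -0.18 to 1.29) in inflammatory cells ADSC, against 1.82 ± 0.43 (range 1.35 to 2.26) in inflammatory cells PBS (SD, n = 4 each). Of those markers 1 fell, Cd5l by -1.70 (adjusted p = 0.0492), while Vsig4 at -2.29 and Clec4f at -3.55 did not pass (adjusted p = 0.0635 and 0.0948) and Cd163 was at 0.67. On each inflammatory cell array 9 or 10 of the 10 were well above background. The mean of 8 monocyte and macrophage markers was 2.60 ± 0.11 in ADSC, against 3.77 ± 0.14 in PBS, with Cd14 and Fcgr1 passing as lower. Neutrophil markers were lower for 9 of 10, with means of 1.98 ± 0.39 in ADSC and 5.59 ± 0.83 in PBS. The log2 of the summed level ran from 5.47 to 6.58 in ADSC and 6.79 to 8.01 in PBS for Kupffer cell markers, from 8.59 to 8.93 in ADSC and 9.36 to 10.12 in PBS for monocyte and macrophage markers, and from 8.68 to 9.26 in ADSC and 10.30 to 11.33 in PBS for neutrophil markers. None of the 3 lists overlapped between the groups. Other lists differed as well: the mean of 8 B cell markers was 1.58 ± 0.32 (range 1.11 to 1.81) in ADSC, against 0.52 ± 0.47 (range -0.16 to 0.89) in PBS, although 0 of 7 tested passed. T cell marker means were 1.71 ± 0.32 in ADSC and 1.68 ± 0.52 in PBS. In liver, where Slc40a1 was higher than in inflammatory cells, the Kupffer cell marker mean was 0.11 ± 0.41 in ADSC and 0.53 ± 0.62 in PBS. Both lay below the mean of inflammatory cells PBS, so across sample types Slc40a1 did not follow these markers. The part of cell makeup in the Slc40a1 difference within inflammatory cells was not tested.

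**Figure D3:**
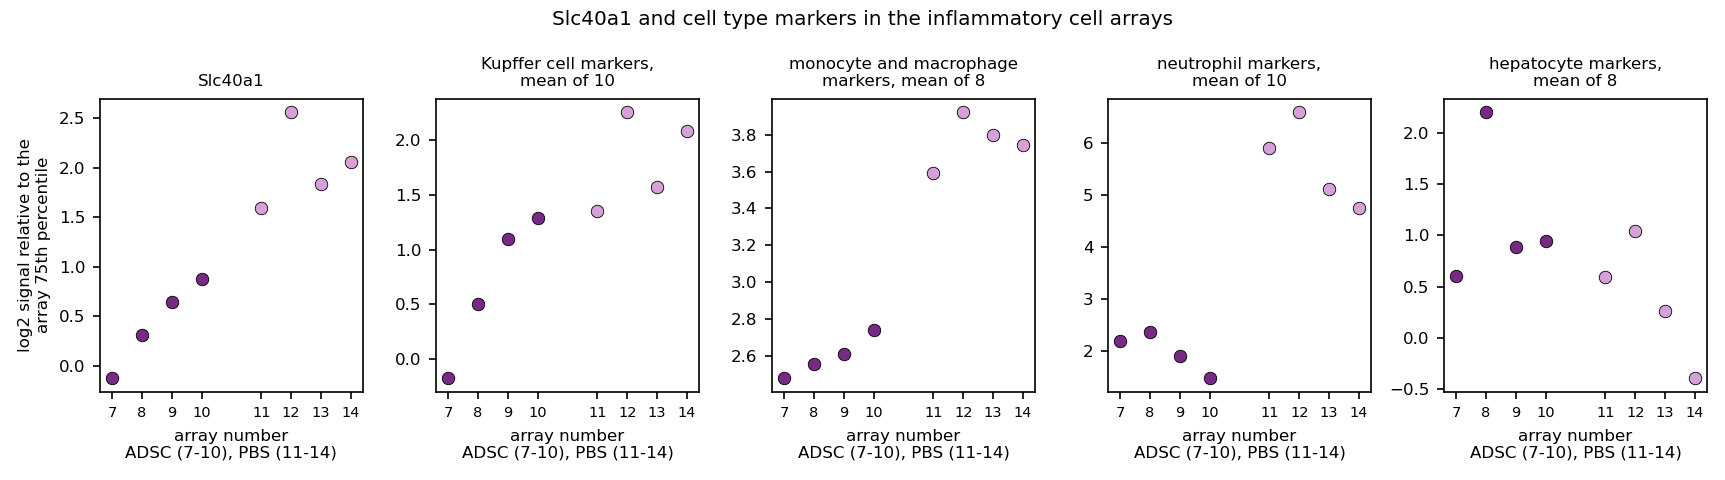
Slc40a1 and the mean level of marker lists for Kupffer cells, monocytes and macrophages, neutrophils and hepatocytes on the 8 inflammatory cell arrays, as log2 signal relative to the 75th percentile of the array (vertical axes), by array number (ADSC 7 to 10 left, PBS 11 to 14 right). Slc40a1, Kupffer cell, macrophage and neutrophil values all lie lower on the 4 ADSC arrays, while hepatocyte means overlap.

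Transferrin, Trf, is the iron carrier of plasma and a major product of hepatocytes. It was at 2.67, 4.70, 3.39 and 3.33 in inflammatory cells ADSC 7 to 10, against 3.04, 3.66, 2.18 and 2.15 in inflammatory cells PBS 11 to 14. Liver values were 8.50, 9.03, 8.54 and 9.00 in ADSC, against 9.01, 8.49, 9.22 and 8.53 in PBS. The sample types lay far apart and the treatments overlapped in both. Trf was 50.2-fold lower in inflammatory cells than in liver, at -5.65 ± 0.28 (SE, adjusted p = 2.94e-11), and ADSC minus PBS was 0.76 in inflammatory cells (adjusted p = 0.381) and -0.05 in liver.

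Transferrin receptor 2, Tfr2, senses iron-loaded transferrin on hepatocytes and feeds into hepcidin control. Tfr2 levels were -1.38, 0.27, -0.83 and -1.07 in inflammatory cells ADSC 7 to 10, against -1.36, -0.24, -1.84 and -2.23 in inflammatory cells PBS 11 to 14. In liver they were 4.41, 4.58, 5.06 and 4.84 in ADSC, against 5.06, 4.58, 5.10 and 4.91 in PBS. Tfr2 was 59.7-fold lower in inflammatory cells than in liver (-5.90 ± 0.27 SE, adjusted p = 1.51e-11), with treatments overlapping in both.

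Trf and Tfr2 varied together among inflammatory cell arrays. Their pooled within-group SDs there were both 0.79, at percentiles 93.5 and 93.6 of 20167 genes, where the median was 0.39. Inflammatory cells ADSC 8 was the highest array for both, and it also had the highest mean of 8 hepatocyte markers, 2.20, against at most 1.04 on the other inflammatory cell arrays. The 7 hepatocyte markers tested in inflammatory cells had ADSC minus PBS values of 0.40 to 1.58 and none passed. The part of hepatocyte RNA in the Trf and Tfr2 values was not tested.

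Transferrin receptor 1, Tfrc, takes up iron-loaded transferrin in most dividing cells and above all in red cell precursors. Tfrc was the 1 gene with 10 spots per array, which agreed within an SD of 0.04 to 0.11. Its level was 0.66, -0.81, -0.23 and -0.16 in inflammatory cells ADSC 7 to 10, against -0.34, -0.15, -0.25 and -0.12 in inflammatory cells PBS 11 to 14. In liver it was -0.44, 0.11, -0.51 and -0.37 in ADSC, against 0.14, -0.14, 0.51 and 0.22 in PBS. The 4 groups overlapped, although 3 of 4 liver ADSC arrays lay below all liver PBS arrays. The liver difference of -0.48 ± 0.18 (SE) had an unadjusted limma p of 0.0299 and an adjusted p of 0.998, in a comparison where 4.65% of genes reached an unadjusted p under 0.05. On the slide that held both treatments in liver it was -0.95, 1 array each. Tfrc did not pass between the sample types either (-0.12, 95% confidence interval -0.50 to 0.27). Inflammatory cells ADSC 7, the highest Tfrc array, had a mean of 8 erythroid markers of -0.33. This was the lowest of the inflammatory cell arrays, against 1.93 to 1.98 on ADSC 8 to 10 and -0.04 to 1.06 on PBS 11 to 14. Only 4 to 7 of the 8 markers were well above background on an inflammatory cell array, so these means rest partly on background values. The part of erythroid RNA in the Tfrc levels was not tested.

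Slc11a1 encodes Nramp1, which pumps divalent metal out of the phagosomes of macrophages and neutrophils, and C57Bl/6 mice are known to carry a loss-of-function allele of it. Levels were 2.21, 2.40, 2.55 and 2.46 in inflammatory cells ADSC 7 to 10, against 3.59, 3.52, 2.16 and 2.86 in inflammatory cells PBS 11 to 14. Liver levels were 2.55, 1.94, 1.85 and 1.97 in ADSC, against 1.63, 2.42, 1.95 and 2.26 in PBS. The groups overlapped in both sample types, and PBS 13 lay below all ADSC arrays of inflammatory cells. ADSC minus PBS was -0.63 ± 0.31 (SE, adjusted p = 0.304) in inflammatory cells and 0.01 in liver. Slc11a1 was 1.57-fold higher in inflammatory cells than in liver (0.65 ± 0.20 SE, adjusted p = 0.00731). The gap was 0.33 within ADSC arrays, where it did not pass (adjusted p = 0.133), and 0.97 within PBS arrays (adjusted p = 0.0253), and within slides and scan days it ran from -0.18 to 1.01.

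Ferritin stores iron in a shell of heavy chains, which oxidise it, and light chains, which help to form the core. The heavy chain gene Fth1 was at 8.81, 8.63, 8.05 and 8.68 in inflammatory cells ADSC 7 to 10, against 9.64, 9.28, 8.69 and 8.88 in inflammatory cells PBS 11 to 14. In liver it was at 9.03, 9.08, 9.32 and 8.95 in ADSC, against 9.30, 8.65, 9.15 and 8.90 in PBS. Of the inflammatory cell ADSC arrays 3 lay below all PBS arrays, yet the difference of -0.58 ± 0.27 (SE) did not pass (adjusted p = 0.284). Fth1 did not pass between sample types (-0.22, 95% confidence interval -0.56 to 0.13), but it passed as lower in inflammatory cells under normexp background correction, under quantile scaling, under both together and within ADSC arrays, as given with the processing alternatives. Ferritin genes have processed copies, whose transcripts a short probe may not tell apart.

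The light chain gene Ftl1 differed between the sample types. It was at 5.20, 5.65, 5.73 and 5.53 in inflammatory cells ADSC 7 to 10, against 5.83, 5.93, 5.09 and 5.42 in inflammatory cells PBS 11 to 14. Liver levels were 6.94, 7.12, 7.29 and 7.22 in ADSC, against 7.17, 6.41, 7.14 and 6.81 in PBS. All inflammatory cell arrays lay below all liver arrays, by 2.76-fold on average (-1.46 ± 0.16 SE, adjusted p = 2.33e-07). ADSC and PBS overlapped in both sample types, with differences of -0.04 in inflammatory cells and 0.26 in liver that did not pass.

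Haem oxygenase 1, Hmox1, opens the haem ring and sets its iron free, mostly in macrophages that clear red cells. Hmox1 was at 3.74, 4.06, 4.31 and 4.26 in inflammatory cells ADSC 7 to 10, against 5.31, 4.62, 4.32 and 4.36 in inflammatory cells PBS 11 to 14. In liver it was at 3.14, 2.64, 3.04 and 2.63 in ADSC, against 3.14, 2.52, 2.79 and 2.84 in PBS. All 8 inflammatory cell arrays lay above all 8 liver arrays, the only one of the 10 genes with that pattern, and Hmox1 was 2.89-fold higher in inflammatory cells (1.53 ± 0.16 SE, adjusted p = 2.61e-07). All 10 markers of cell isolation stress were higher there too, and the part of isolation in the Hmox1 level was not tested. Within inflammatory cells the ADSC arrays lay below the PBS arrays, but only by 4.308 against 4.325 at the edge, and the difference of -0.56 ± 0.27 (SE) did not pass (adjusted p = 0.289). Within slides 2 and 3 it was -1.25 and -0.88, and within scan days 2 and 3 it was -1.07 and -0.04.

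Ceruloplasmin, Cp, is the copper ferroxidase that hepatocytes secrete and that readies exported iron for transferrin. Cp was at 2.74, 4.20, 3.01 and 3.36 in inflammatory cells ADSC 7 to 10, against 3.28, 4.22, 3.03 and 2.93 in inflammatory cells PBS 11 to 14. Its liver levels were 7.48, 7.86, 7.69 and 7.79 in ADSC, against 8.13, 7.72, 8.03 and 7.59 in PBS. The sample types did not overlap, at 21.7-fold lower in inflammatory cells (-4.44 ± 0.22 SE, adjusted p = 2.82e-11). ADSC and PBS overlapped in both, with differences of -0.04 in inflammatory cells and -0.16 in liver (95% confidence intervals -0.85 to 0.78 and -0.51 to 0.18).

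Counted together, 0 of the 10 genes passed between ADSC and PBS in liver by limma, against a background of 0% of 17321 genes, with 1 of the 10 (Tfrc) and 4.65% of all genes at an unadjusted p under 0.05. None of the 10 separated liver ADSC from liver PBS without overlap, as 2.93% of genes did, 1.24% as lower and 1.69% as higher. The median of the 10 differences was 0.03, beside 0.04 over all genes tested. In inflammatory cells the median of the 10 was -0.04, beside 0.03 over all genes, with 4 estimates above 0 and 6 below. The plot of effects with their intervals shows Slc40a1 as the gene whose interval lies farthest from 0.

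**Figure D4:**
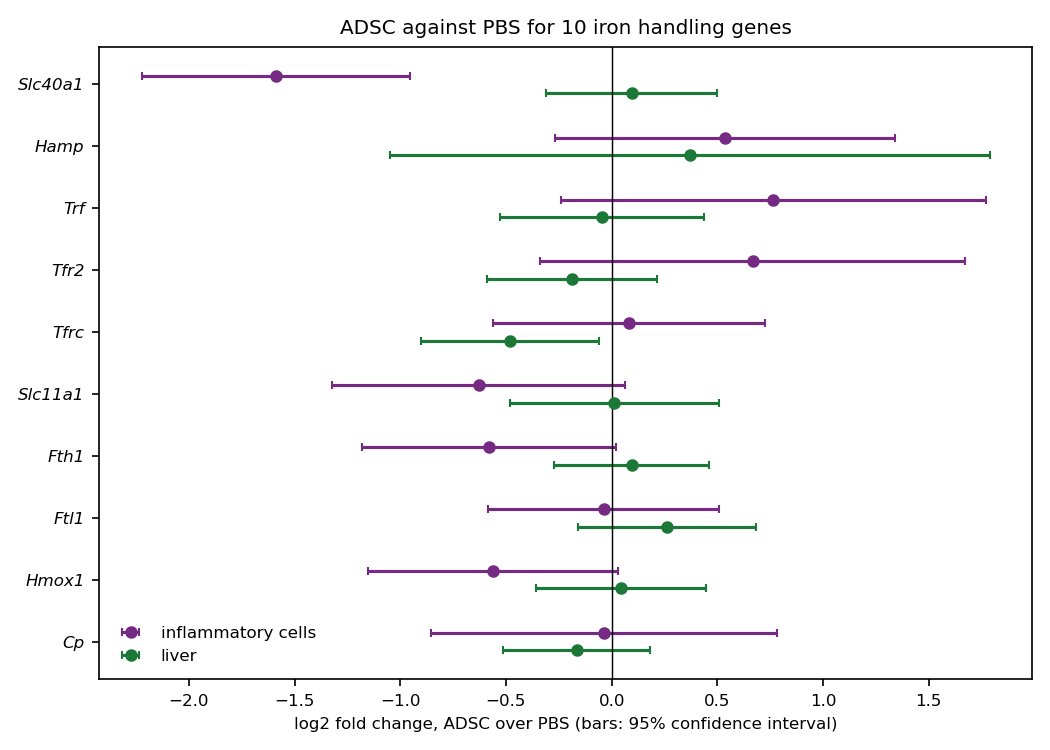
Log2 fold change of ADSC over PBS (horizontal axis) for the 10 genes, in inflammatory cells (upper point of each pair) and liver (lower point), with 95% confidence intervals from limma. In inflammatory cells the Slc40a1 interval runs from -2.22 to -0.95 and the other 9 cross 0, and in liver Tfrc has an interval of -0.90 to -0.06 that does not survive adjustment.

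Between inflammatory cells and liver, 8 of the 10 genes passed, 2 as higher and 6 as lower, in a comparison where 84.2% of 22145 genes passed, 49% as higher and 35.2% as lower, and 84.9% had an unadjusted p under 0.05, as had 8 of the 10. The share of 8 in 10 is thus close to that of all genes. Likewise 7 of the 10 did not overlap between the sample types, as did 57.7% of genes. The median of the 10 differences was -2.04, while the median of all genes was 0.36. That shift depends on the scaling: it was 0.24 with quantile scaling, 0.13 with normexp and quantile scaling, and 0.68 with the 75th percentile over detected probes. Relative to the all-gene median, Hmox1 stood at 1.17 and Slc11a1 at 0.29, and both stayed above 0 under the 4 other scalings. Tfrc at -0.47 and Fth1 at -0.57 stayed below the all-gene median under those scalings. The 8 calls were also made within PBS arrays alone, whereas within ADSC arrays the 8 passing genes held Fth1 and not Slc11a1.

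The other genes of iron metabolism on the array were 84 genes in 7 lists. In inflammatory cells ADSC against PBS, 2 of 74 tested fell and 0 rose, where 1.09% of all genes fell and 0.134% rose. Ltf, which encodes the neutrophil granule protein lactoferrin, was at 2.70, 2.68, 2.16 and 1.78 in ADSC 7 to 10, against 7.22, 8.17, 5.76 and 5.92 in PBS 11 to 14, a fall of -4.44 ± 0.49 (SE, adjusted p = 0.00262). The groups lay far apart, and Ltf is itself one of the neutrophil markers that were lower. It passed in 21 of 23 alternatives (adjusted p 0.000372 to 0.136). Ltf did not pass with slide as a fixed block (-5.01) or without the 3 pancreas-rich arrays (-4.53), and in both settings 0 genes in all passed. Fbxl5, part of the ubiquitin ligase that removes iron regulatory protein 2 when iron is plentiful, was at 1.86, 1.65, 1.88 and 1.76 in ADSC 7 to 10, against 4.02, 4.59, 3.26 and 2.82 in PBS 11 to 14. Here too no array overlapped, and the fall was -1.89 ± 0.35 (SE, adjusted p = 0.0288). Fbxl5 passed in 13 of 23 alternatives (adjusted p 0.00611 to 0.136), and leaving out any one of PBS 11, PBS 12, ADSC 8, ADSC 9 or ADSC 10 ended the call, with adjusted p = 0.0676, 0.0681, 0.074, 0.0898 and 0.0842. The call also ended with the mean of the gene's probes in place of the brightest (-1.70, limma, adjusted p = 0.0622). It was lost too over detected probes (0.054), without the filter on dim probes (0.0715), with slide as a fixed block (0.05002) and without the 3 pancreas-rich arrays (0.136).

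By list, in inflammatory cells ADSC against PBS, 1 of 8 uptake genes fell (Ltf) and 1 of 4 genes of the iron regulatory proteins (Fbxl5). None passed among 6 storage genes, 1 export gene, 12 genes of haem uptake and degradation, 25 of hepcidin regulation, and 18 of mitochondrial iron and haem synthesis. Nfe2l2, the transcription factor that drives Hmox1, Fth1 and Slc40a1 under oxidative stress, was at -1.002 ± 0.26 (SE, adjusted p = 0.0975). Its levels were 3.96, 2.93, 3.02 and 3.31 in ADSC 7 to 10, against 4.31, 4.41, 4.38 and 4.13 in PBS 11 to 14, with no overlap. Picalm, a clathrin adaptor of receptor uptake, was at -0.89 (adjusted p = 0.0775). Of other genes with the smallest p of their lists, the constitutive haem oxygenase gene Hmox2 was at -0.78, the BMP receptor gene Bmpr1a at -1.23 (well above background on 2 of 4 ADSC arrays), the haemochromatosis gene Hfe at -0.88, App at -0.63, the iron regulatory protein 1 gene Aco1 at -0.42, mitochondrial ferritin Ftmt at -1.08 (likewise 2 of 4), the mouse ferritin receptor gene Timd2 at 0.47, and the haem synthesis genes Urod and Alas1 at -0.58 and -0.97, none passing. Of the 74 genes 12 reached an unadjusted p under 0.05, a share to be read against 18.5% of all genes.

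In liver, 0 of 75 tested genes of these lists passed between ADSC and PBS by limma, and 5 reached an unadjusted p under 0.05, as did 4.65% of all genes. Ltf was at -0.72, -1.92, -2.73 and -2.68 in liver ADSC 7 to 10, against 1.36, 4.54, 0.76 and 2.69 in liver PBS 11 to 14. The groups did not overlap, but the difference of -4.35 ± 0.81 (SE) did not pass (adjusted p = 0.562). Socs3, which restrains interleukin-6 signals, was at -0.79, Steap4, a ferrireductase, at -0.53 and Gdf15 at -0.33, each with adjusted p = 0.998. The haem-binding plasma protein gene Hpx and the macrophage transcription factor gene Spic were at -0.20 and -0.29. For the difference of effects between sample types, 0 of 80 passed and 10 had an unadjusted p under 0.05, as had 10.1% of all genes, with Nfe2l2 at -1.07 (adjusted p = 0.199) and Fbxl5 at -1.62 (adjusted p = 0.314).

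Against liver, 21 of 80 genes were higher in inflammatory cells and 49 lower, where 49% of all genes were higher and 35.2% lower. The median difference was -0.83, beside 0.36 over all genes. Of the uptake genes 6 of 9 were lower and 2 higher. Slc39a14, which takes up iron not bound to transferrin, was lower by -3.59 ± 0.15 (SE). Steap4 was lower too, with a fitted difference of -5.88, but it was well above background on 0 of 4 ADSC and 2 of 4 PBS arrays of inflammatory cells, so that size rests largely on background values. In the storage list 3 of 6 were higher and 2 lower, with Timd2 at -4.83. Ftmt was among the higher ones, with a fitted difference of 2.06, but in liver it was well above background on 0 of 4 ADSC and 2 of 4 PBS arrays, so that size too rests largely on background values. All 3 export genes were lower, Flvcr2 at least 19.4-fold and Heph, a ferroxidase related to Cp, at least 3.14-fold, since neither was well above background on the 8 inflammatory cell arrays.

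Haem and haemoglobin scavengers of plasma were also lower in inflammatory cells, Hpx by -5.19 ± 0.29 and the haptoglobin gene Hp by -3.57 ± 0.22 (SE), in a list with 8 of 12 lower and 2 higher. The higher ones were Spic, at 2.47, and Cd163, the macrophage receptor for haemoglobin bound to haptoglobin, which was at least 1.81-fold higher, with no liver array well above background. Genes of hepcidin regulation were lower for 17 of 28 and higher for 7. Il6, the interleukin-6 gene, was at 1.26, 1.45, 1.41 and 2.67 in inflammatory cells ADSC 7 to 10 and 2.56, 1.74, 3.34 and 1.02 in inflammatory cells PBS 11 to 14. None of the liver arrays was well above background for it, so it was at least 47.8-fold higher in inflammatory cells, beside 10 of 10 markers of cell isolation stress that were higher there, whose part in the Il6 level was not tested. Of that list Smad5, a transducer of BMP signals, was lower by -2.50 ± 0.09, as was, named after its value was seen, the hepcidin repressor gene Tmprss6 by -5.74. The iron sensors themselves split: Aco1 was at -3.28 ± 0.16, against 3.17 ± 0.25 for Fbxl5 and 1.08 for Ireb2, the iron regulatory protein 2 gene, also named after its value was seen. In the list of mitochondrial iron and haem synthesis 12 of 18 were lower, the haem synthesis enzyme gene Alad by -3.92 and the cysteine desulphurase gene Nfs1 by -2.13, and 5 were higher.

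**Figure D5:**
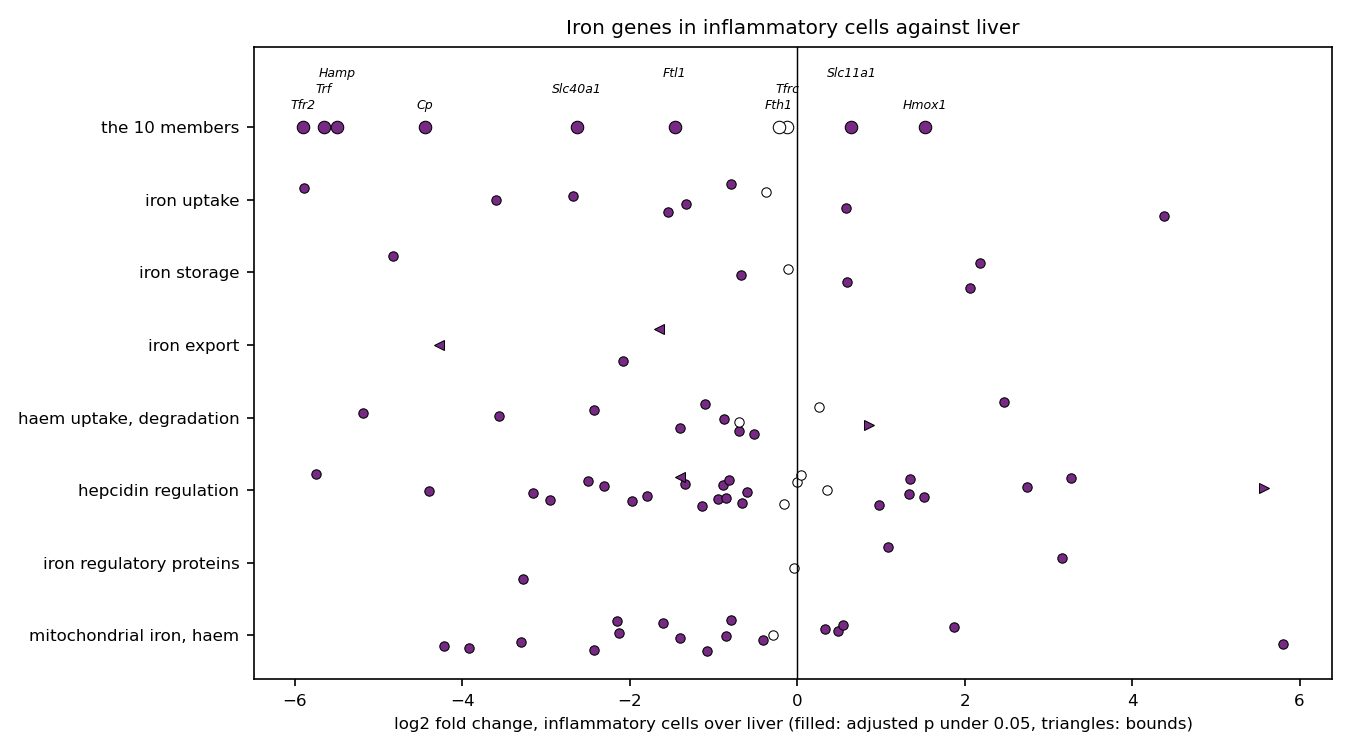
Log2 fold change of inflammatory cells over liver (horizontal axis) for the 10 genes and for 80 further iron genes in 7 lists (rows), with filled symbols for adjusted p under 0.05 and open symbols for genes that did not pass. Triangles mark 5 genes given as bounds because all arrays of 1 sample type were too dim to measure them, and genes measured on some arrays of a sample type are drawn at their fitted values. Of the 80 genes 49 lie to the left as lower and 21 to the right as higher.

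The genes most like each of the 10 across the 16 arrays were found among 13203 genes by Pearson r, as a description. For members far apart between the sample types, r takes in that split as well as variation within groups. Beside r, the r of the deviations from group means is given for Slc40a1 and Hamp. For the other members that second value ran from 0.63 (Hmox1 with Ehbp1l1) to 0.98 (Tfr2 with Plg). The genes nearest to Slc40a1 were Mocos (0.99, deviations 0.69), Tpi1 (0.99, 0.82) and Sumf1 (0.99, 0.87). Hamp was nearest to Ttyh2 (0.99, deviations 0.84), Sec14l4 (0.99, 0.81) and Slc26a1 (0.99, 0.82). Tfr2 and Trf shared F12 and Plg among their nearest 3, at 0.998 and 0.998 for Tfr2 and 0.997 and 0.997 for Trf, and Tfr2 was itself the third gene for Trf (0.996). Cp was nearest to C4bp, Ambp and Fgg, Ftl1 to Coq8b, Aspscr1 and Abcb6, all at r of at least 0.985. The remaining members had lower values. Hmox1 was nearest to Ptgir (0.97), Zfand5 and Ehbp1l1, and Slc11a1 to Selenon (0.94), Hpcal1 and Sec14l1. Fth1 was nearest to Gcnt2 (0.90), Rnf149 and Tuba1c, and Tfrc to Cstf1 (0.79), Pgam5 and Wdr36.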

How the data were processed

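RNA of 16 samples (4 groups of 4) was hybridised to one-colour Agilent arrays. The deposited intensities are the scanner's background-subtracted and processed signals, from Agilent Feature Extraction 10.5.1.1 per the file headers. The deposited value table held the same intensities on a linear scale, not centred, with column medians of 30.6 to 90.9. Control spots were dropped, as were 71 to 124 outlier spots on an array. The 43379 remaining spot positions were averaged to 41174 probes. Of these 23374 were named with 16535 symbols through RefSeq on GRCm38.p6 and 17800 kept the name in the file, giving 33269 gene names. Where a gene had several probes (6361 genes) the brightest stood for it. Each array's log2 signal was taken relative to its own 75th percentile.

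A gene was tested in a comparison if 4 or more of its arrays were well above background. Tests used limma 3.58.1 in R 4.3.3 (lmFit and eBayes), with Benjamini-Hochberg adjusted p under 0.05 as the threshold. The fits were ADSC against PBS in each sample type, inflammatory cells against liver over 16 arrays, and the difference of the ADSC effects. The test was tried on simulated data. Alternatives were normexp background correction (offset 50, from the median signal, as no mean signal was in the files), quantile scaling, the percentile over detected probes, other filters and probe rules, slide or scan day as a block, array weights and leaving out arrays.

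The 10 genes, the pathway lists and the marker lists were chosen with earlier results of these data known. The text counts all 10 in every comparison and names the pathway genes that passed between ADSC and PBS, and the 3 genes most alike to each of the 10. Other pathway genes were to be the 2 with the smallest p per list and comparison. Not all of these are printed, above all in liver and for the difference of effects, so the genes named there are not a complete set. Hamp2, Tmprss6, Ireb2, Spic and Cd163 between sample types and single markers were named after their values were seen. Same-numbered arrays of the sample types had deviations that correlated at -0.06 to 0.17. These values cannot settle whether such arrays share a mouse, since liver and a cell fraction of the same mouse need not deviate alike. The number of arrays limits the precision. Coordinates are given for promoter windows alone, on GRCm38.p6, since the array design uses another build.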

Additional observations from a re-analysis of the deposited data

How the results depend on the processing

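ADSC and PBS could not be paired, because the ADSC arrays carry the numbers 7 to 10 and the PBS arrays 11 to 14. Inflammatory cells and liver share their numbers, so a block on the number was fitted for the comparisons between them. With the number as a replicate block, 8 of the 10 genes passed between inflammatory cells and liver (Slc40a1 at -2.63) and 0 passed for the difference of effects (Slc40a1 at -1.68, adjusted p = 0.273), where 0 genes in all were lower instead of 7. Only numbers 7, 9 and 12 matched their own number best, which does not settle whether same-numbered arrays share a mouse.

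In inflammatory cells 1 of the 10 genes passed between ADSC and PBS. The count was 0 with the percentile over detected probes, with no filter on dim probes and with slide or scan day as a fixed block. It was also 0 without the 3 pancreas-rich arrays, and 0 to 1 with single arrays left out. With slide as a fixed block, and without the 3 pancreas-rich arrays, 0 genes in all passed. The count was 3 with array weights (Fth1 and Slc11a1 in addition), where 4462 of 20167 genes passed, against 246 without the weights. For the difference of effects the count was 1 instead of 0 with probes above background on every array, where 64 of 12840 genes passed. It was also 1 with array weights, where 914 of 22145 genes passed, and 0 with any array left out. In liver it was 0 throughout, and between sample types 8 to 9. Of 1136 values of single genes 56 changed sign, and 0 of these had an adjusted p under 0.05. The cause of these changes was not tested.

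In liver, Slc11a1 was at -0.022 with normexp and the 75th percentile, -0.0031 with normexp and quantile scaling and -0.011 with quantile scaling. With slide as a fixed block Hamp was at -0.78, Fth1 at -0.12 and Ftl1 at -0.20, and with scan day Hamp was at -0.57 and Ftl1 at -0.027. With array weights Slc40a1 was at -0.028, Trf at 0.27, Hmox1 at -0.079, Cp at 0.086 and Slc11a1 at -0.20. With single arrays left out Slc40a1 ran from -0.046 to 0.19, Hamp from -0.090 to 0.80, Trf from -0.15 to 0.090, Hmox1 from -0.058 to 0.15, Fth1 from -0.021 to 0.19 and Slc11a1 from -0.15 to 0.13.

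In inflammatory cells, Ftl1 and Cp were at 0.31 and 0.18 with normexp and quantile scaling, 0.23 and 0.16 with quantile scaling and 0.085 and 0.086 with detected probes, and Tfrc was at -0.029 with array weights. With single arrays left out Tfrc ran from -0.18 to 0.30, Ftl1 from -0.20 to 0.084 and Cp from -0.33 to 0.25. Between sample types, Tfrc and Fth1 were at 0.20 and 0.11 with detected probes, Fth1 at 0.12 within PBS arrays and Tfrc at 0.16 within ADSC arrays. Fth1 passed with normexp and the 75th percentile (-0.36), with normexp and quantile scaling (-0.58), with quantile scaling (-0.58) and within ADSC arrays (-0.55), at adjusted p = 0.0409, 0.016, 0.0173 and 0.0242, in a range of 0.016 to 0.684. For the difference of effects, Ftl1 was at 0.11 with normexp and quantile scaling and 0.0033 with quantile scaling, Hamp at -0.69 with slide and -0.14 with scan day as a block, and Cp at -0.35 with array weights and -0.094 without the 3 pancreas-rich arrays. With single arrays left out Hamp ran from -0.27 to 0.63 and Cp from -0.16 to 0.41.

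Over all genes, ADSC against PBS in inflammatory cells gave 27 higher and 219 lower calls, with 0 to 2634 higher and 0 to 1828 lower over the alternatives, and 2 to 196 higher and 69 to 308 lower with single arrays left out. In liver there were 0 to 3 higher and 0 to 10 lower. The difference of effects gave 0 to 325 higher and 0 to 589 lower, with 18 higher and 56 lower under normexp and quantile scaling against 0 and 7. Between sample types there were 4861 to 18138 higher, against 10860, and 5578 to 8149 lower, against 7795.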
